A study of Mus musculus with 6 samples.

Results

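The genes described here encode the subunits of the oxidative phosphorylation complexes, taken from both the nuclear and the mitochondrial genome, in the brains of late mouse embryos. Members were the annotated genes whose symbols carry the names of complex I to V subunits and whose mean level over the 6 libraries was at least 1 TPM (the transcript's length-scaled share of its library). Of 105 matching genes, 101 reached that level, out of 18893 annotated genes that did so and 55359 annotated genes in all. They comprised 13 genes of the mitochondrial genome, 85 nuclear genes and, kept apart, the 3 muscle isoforms Cox6a2, Cox7a1 and Cox8b. Complex I held 38 nuclear and 7 mitochondrial genes, complex II 4 nuclear genes, complex III 9 and 1, complex IV 16 and 3, and complex V 18 and 2. The level minimum was blind to genotype. Ndufs6b lay just inside it at a mean of 3.05 TPM, and Cox7b2 lay just outside at 0.22 TPM. The other members left out were Ndufa11b with a mean of 0.06 TPM, and Cox8c and Ndufb11b, both listed at 0 in all 6 libraries.

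Both groups were whole brains taken at E18.5, late in gestation. The S156A group carried PME-1 with the S156A exchange of serine for alanine, and the WT group carried wild-type PME-1. PME-1 is the methylesterase that acts on the catalytic subunit of protein phosphatase 2A. There were 3 libraries in each group, and every library was RNA pooled from 3 brains, so the spread between libraries joins that of pools of different animals with technical spread. Whether the allele was carried on both chromosomes, and the strain and sex of the embryos, is not stated in the labels.

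Oxidative phosphorylation turns the electrons of NADH and succinate into a proton gradient across the inner mitochondrial membrane, and the gradient drives ATP synthesis. Complexes I, III and IV pump protons while passing electrons on to oxygen, complex II feeds in electrons from succinate without pumping, and complex V, the ATP synthase, lets protons back in to make ATP. Mitochondrial DNA encodes the hydrophobic core of complexes I, III, IV and V, while all of complex II and most subunits of the others are nuclear genes whose proteins are imported. Neurons depend heavily on this pathway for ion pumping, and several cytochrome c oxidase subunits exist as tissue isoforms.

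Estimated depth was 3.24 to 4.14 aligned gigabases in S156A libraries and 3.15 to 3.37 in WT libraries. Markers of neurons were expressed in every library, as the tissue label requires. Skeletal muscle transcripts set S156A 1 and WT 3 apart from the other libraries: the summed level of 10 muscle markers was 7733, 64.9 and 59.1 TPM in S156A 1 to 3 and 17.04, 902 and 7003 TPM in WT 1 to 3. The calls among members, the medians of the mitochondrial and nuclear genes, the mitochondrial share and the muscle isoforms are therefore also given without both. WT 2, which stays in, held more muscle marker RNA than the other libraries kept. In whole-tissue RNA, fewer cells of a type and less RNA per cell cannot be told apart.

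No subunit gene passed the test between S156A and WT brains. Most had fitted values slightly lower in S156A, with a larger median difference for the mitochondrial genes than for the nuclear ones. Of the 101 genes 0 passed limma's test at an adjusted p under 0.05, where 0.159% of all 18893 genes did, 0.0847% higher and 0.0741% lower. An unadjusted p under 0.05 was reached by 4 members, all lower in S156A. That is 3.96% of the members, against 13.9% of all genes, 8.41% higher and 5.5% lower. These were mt-Nd5, Cox5a, Ndufs8 and Ndufa12. The fitted log2 difference was below 0 for 74 of 101 members, or 73.3%, against 38.3% of all genes. The median was -0.08 over the members and 0.09 over all genes tested. In 8 members every S156A library lay below every WT library, 7.92% against 7.05% of all genes, and in 0 members did every S156A library lie above, against 13.7% of all genes. All differences are S156A minus WT on the log2(TPM + 1) scale.

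**Figure D1:**
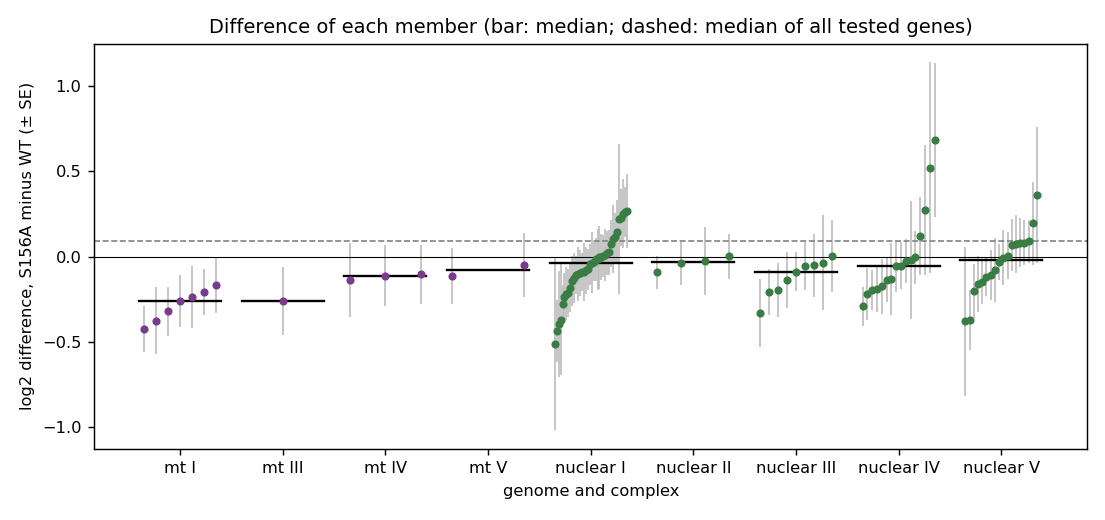
Fitted log2 difference of each subunit gene, S156A minus WT, on log2(TPM + 1), with bars of 1 standard error, grouped by genome (mt, mitochondrial; nuclear) and complex. The short horizontal bars are group medians, from -0.26 for the mitochondrial genes of complexes I and III to -0.02 for the nuclear complex V genes, and the dashed line is the median of all tested genes at 0.09.

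The 13 mitochondrially encoded genes were all lower in S156A (median -0.21), except that mt-Co1 was at 0.09 under quantile normalization and mt-Atp6 at 0.05 without WT 1. Their differences lay between -0.43 and -0.05. All of these genes but mt-Nd6 lie head to tail on the plus strand of a circular genome. The genes of that strand are cut from long shared transcripts, so their values are not independent of each other. In 4 of 13 the groups did not overlap, mt-Nd2, mt-Nd4, mt-Nd5 and mt-Co1, all with S156A below WT. That is 30.8%, against 7.05% of all genes. WT 1 held the highest level of 12 of 13 genes and S156A 3 the lowest of 8.

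The 7 that encode membrane subunits of complex I, the NADH dehydrogenase, had a median of -0.26 on the log2 scale. The proton-pumping subunit mt-Nd5, at 11742 to 13565 on the plus strand of the mitochondrial chromosome, had 1059, 1161 and 981 TPM in S156A brains and 1544, 1431 and 1323 TPM in WT brains. Each S156A library was below each WT library, and the log2 difference was -0.43 (standard error 0.14, limma adjusted p = 0.257). Another pumping subunit, mt-Nd2, had 1764, 1947 and 1647 TPM in S156A and 2314, 2264 and 2105 TPM in WT, also without overlap (log2 difference -0.32, SE 0.15; limma adjusted p = 0.382). The third pumping subunit, mt-Nd4, stood at 2478, 2559.8 and 2263 TPM in S156A and at 3026, 2980.3 and 2729 TPM in WT (log2 difference -0.26, SE 0.15). Its short neighbour mt-Nd4l had 1242, 1678 and 1056 TPM in S156A and 1789, 1732 and 1549 TPM in WT, where S156A 2 reached into the WT range. The annotated spans of mt-Nd4l and mt-Nd4 overlap on the same strand, so reads could be shared between them.

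The other complex I genes differed less. The subunit mt-Nd1, which helps form the quinone pocket, had 3708, 3308 and 2877 TPM in S156A and 4168, 3667 and 3766 TPM in WT (log2 difference -0.24, SE 0.18). For mt-Nd3, the least abundant of the 13, values were 797, 592 and 801 TPM in S156A and 900, 796 and 749 TPM in WT (log2 difference -0.17, SE 0.16). The sole subunit gene on the minus strand, mt-Nd6 at 13552 to 14070, had 1158, 1118 and 1319 TPM in S156A and 1491, 1306 and 1354 TPM in WT (log2 difference -0.21, SE 0.14). In all 3 genes the groups overlapped. The last bases of mt-Nd5 and mt-Nd6 overlap on opposite strands, and the strand setting of the counting is not stated.

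Cytochrome b, mt-Cytb, the haem-carrying core of complex III, had 5388, 4736 and 4366 TPM in S156A and 6360.1, 5763 and 5249.8 TPM in WT. The groups overlapped through S156A 1 and WT 3, and the log2 difference was -0.26 (standard error 0.20, limma adjusted p = 0.594). Complex IV and V genes lay closer to 0. The catalytic oxidase subunit mt-Co1, the most abundant of the 13, had 8783, 8792 and 8439.8 TPM in S156A and 10115, 9329.7 and 9204 TPM in WT, a log2 difference of -0.14 (SE 0.22) without overlap. The copper-binding subunit mt-Co2 had 4369, 3641 and 3642 TPM in S156A and 4256, 3980 and 4304 TPM in WT, and here S156A 1 was the highest of all 6 libraries. For mt-Co3, a subunit of the catalytic core, values were 3769, 3564 and 3859 TPM in S156A and 4455, 3832 and 3760.03 TPM in WT.

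Both mitochondrial genes of the ATP synthase had overlapping groups. The proton-channel subunit mt-Atp6 stood at 4548, 4221 and 4404 TPM in S156A and at 5222, 4056 and 4435 TPM in WT, the smallest difference of the 13 at -0.05 (SE 0.19). The small membrane subunit mt-Atp8 had 2257, 2345 and 2107 TPM in S156A and 2808, 2203 and 2276 TPM in WT (log2 difference -0.11, SE 0.16). The spans of mt-Atp8, mt-Atp6 and mt-Co3 overlap on the same strand at 7927 to 7969 and at 8607. The 2 ribosomal RNA genes upstream, named after their values were seen, had larger differences than any of the 13 subunit genes. Of these, mt-Rnr1 had 381, 434 and 529 TPM in S156A and 863, 941 and 700 TPM in WT (log2 difference -0.90, SE 0.17, limma adjusted p = 0.0961). The other, mt-Rnr2, had 287, 354 and 381 TPM in S156A and 547, 514 and 404 TPM in WT (log2 difference -0.515, SE 0.16, limma adjusted p = 0.257). Among the transfer RNA genes of the same chromosome, log2 differences ran from -1.325 for mt-Tt (mean 4.97 TPM) to 0.371 for mt-Th. These too were named after their values were seen.

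**Figure D2:**
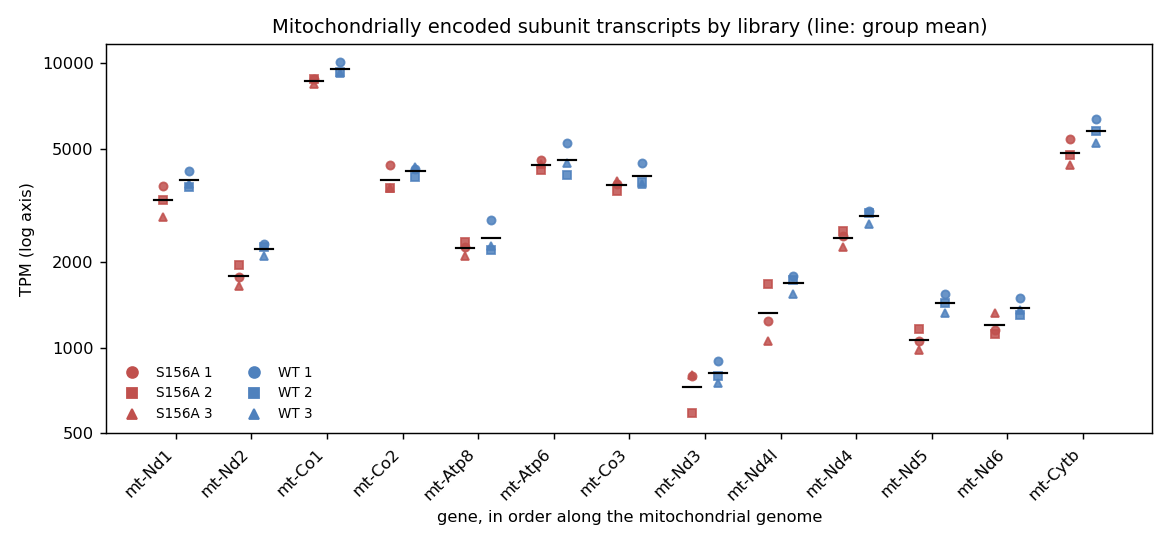
TPM (log axis) of the 13 mitochondrially encoded subunit genes in each library, in their order along the mitochondrial genome, S156A left and WT right, with group means as lines. The mean TPM as deposited is lower in S156A for all 13 (mt-Co1 changes sign under quantile normalization), from a ratio of 0.745 for mt-Nd5 to 0.961 for mt-Atp6, and the groups overlap in 9 of 13.

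Summed over the 13 genes, the mitochondrial transcripts came to 41319.9, 39662 and 37763 TPM in S156A 1 to 3 and to 48449.6, 43338 and 42802 TPM in WT 1 to 3. The S156A libraries all lay below the WT libraries, with means of 39582 ± 1780 TPM in S156A and 44863 ± 3117 TPM in WT (SD, n = 3 each) and a ratio of 0.882. As a share of the TPM of annotated genes the sum was 4.32%, 4.15% and 3.97% in S156A and 5.06%, 4.66% and 4.47% in WT, a mean difference of -0.582 percentage points that became -0.798 without S156A 1 and WT 3. The nuclear subunit genes summed to 21605, 16908 and 18874 TPM in S156A and to 19217, 18419.7 and 22699.7 TPM in WT, which overlap, with a ratio of 0.951. Mitochondrial over nuclear sums gave ratios of 1.91, 2.35 and 2.00 in S156A and 2.52, 2.35 and 1.89 in WT, again overlapping.

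Markers of several cell types also differed between the groups. The 5 neuron markers together held 2285, 3177 and 3128 TPM in S156A and 4421, 4064 and 3146 TPM in WT. All 5 were lower, and 4 had groups that did not overlap, against 7.05% of all genes with S156A below WT. By limma 0 of these markers were called and 4 had an unadjusted p under 0.05, where 5.5% of all genes were lower. Their sums overlapped through S156A 2 and WT 3. S156A 1, with the lowest neuron sum and the highest skeletal muscle marker sum, had the highest mitochondrial sum of the S156A libraries. In WT the neuron and mitochondrial sums both fell from WT 1 to WT 2 to WT 3, while the skeletal muscle marker sum rose. The 5 astrocyte markers summed to 1441, 1594 and 2237 TPM in S156A and 740.3, 817 and 805 TPM in WT, 1 of them called higher (Gfap). Most of this sum was Apoe, at 1194, 1228 and 1862 TPM in S156A and 498, 584 and 616 TPM in WT. The markers did not move together: log2 differences were 2.26 for Gfap, 1.31 for Apoe, 0.70 for Aqp4, 0.07 for Slc1a3 and -0.12 for Aldh1l1. The 5 microglia markers summed to 159.9, 164 and 189.7 TPM in S156A and 49.9, 54.0 and 80.9 TPM in WT, 2 of them called higher (Cx3cr1 and Trem2). Their log2 differences were 2.07 for Cx3cr1, 1.94 for Trem2, 1.57 for C1qa, 1.03 for Csf1r and 0.19 for P2ry12, whose groups overlapped. Erythroid markers, which take a share of the same total, summed to 19302, 17112 and 24279.9 TPM in S156A and 13512, 10025 and 22253 TPM in WT, with a median log2 difference of 0.51 over 5 tested genes. The part of these markers in the mitochondrial values was not tested.

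**Figure D3:**
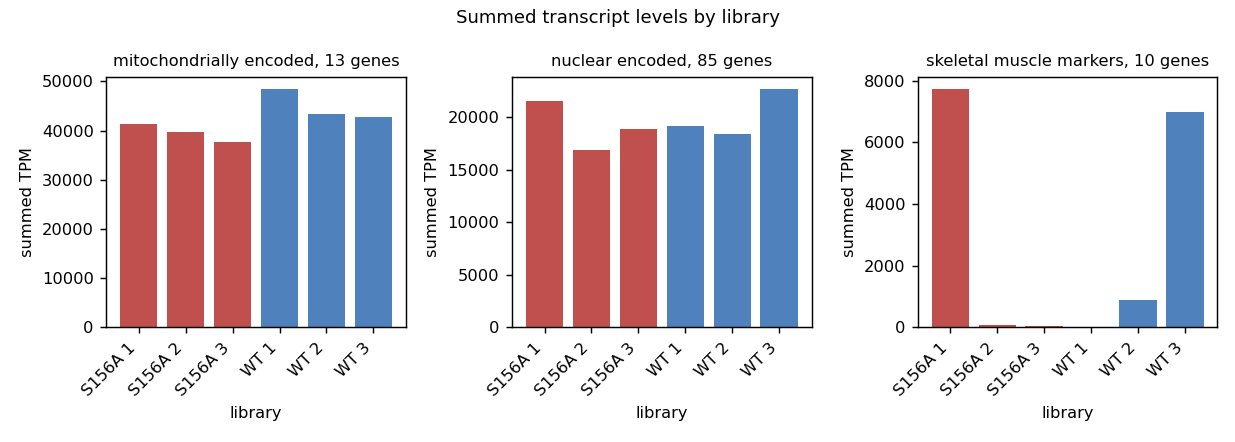
Summed TPM per library of the 13 mitochondrial subunit genes, the 85 nuclear subunit genes and 10 skeletal muscle markers, S156A in red and WT in blue. The 3 S156A bars of the mitochondrial sum, 37763 to 41319.9 TPM, are below the 3 WT bars, 42802 to 48449.6 TPM, while in the other panels the tall bars are S156A 1 and WT 3.

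Nuclear subunit genes as a class differed little between genotypes. Their median log2 difference was -0.05, with 58 genes lower, 27 higher and 0 called, and 3 at an unadjusted p under 0.05. The sign of this median was set by single libraries: it was 0.04 without S156A 2, 0.04 without WT 3 and -0.14 without S156A 1. Levels were steady for most of the class, with 75 of 85 genes varying less than 2-fold over the 6 libraries and a median range of 1.43-fold.

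Among the 38 nuclear genes of complex I the median log2 difference was -0.04, with 25 lower and 13 higher. The 7 core genes had a median of -0.03, and the 31 accessory genes had -0.07. Most of the core genes encode subunits that carry the flavin or iron-sulfur clusters or line the quinone site. Ndufs8, a core iron-sulfur subunit on chromosome 19 (3958863 to 3962774 in the files' coordinates), had 111, 109 and 104 TPM in S156A and 128, 119.7 and 146 TPM in WT. Its groups did not overlap, at a log2 difference of -0.28 (standard error 0.11, limma adjusted p = 0.333). Ndufa12, an accessory subunit on chromosome 10 (94034582 to 94057305), had 39.8, 37.4 and 37.4 TPM in S156A and 49.4, 41.5 and 68.5 TPM in WT. Here WT 3 stood far above the other WT libraries, and the log2 difference was -0.43 (standard error 0.18, limma adjusted p = 0.355).

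The third smallest p among the nuclear genes of the complex was that of Ndufb1, an accessory gene with a log2 difference of 0.26 (standard error 0.15, limma adjusted p = 0.471), at 56.9, 68.3 and 55.9 TPM in S156A and 49.8, 43.3 and 58.1 TPM in WT. GENCODE M21 annotates this row as a long non-coding RNA at a bidirectional promoter. The most abundant nuclear complex I gene, Ndufa11 of the membrane arm, had 263, 215 and 269 TPM in S156A and 274, 247 and 263 TPM in WT. The least abundant nuclear one, Ndufs6b, which GENCODE M21 lists as a processed pseudogene, had 0.82, 5.12 and 1.61 TPM in S156A and 4.77, 1.81 and 4.2 TPM in WT. Ndufb8, an accessory subunit named after its values were seen, had 247, 205 and 219.7 TPM in S156A and 86.0, 265 and 307 TPM in WT, so that WT 1 alone set its 3.57-fold range. It overlaps Gm20538 on the same strand, so its reads could be divided between them.

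Complex II, succinate dehydrogenase, also belongs to the citric acid cycle, and its 4 genes had log2 differences between -0.09 for Sdhc and 0.001 for the flavoprotein Sdha. The iron-sulfur subunit Sdhb had 200.04, 173 and 206 TPM in S156A and 187, 180.2 and 228 TPM in WT. The membrane anchor Sdhc had 67.0, 66.0 and 70.5 TPM in S156A and 73.5, 67.8 and 76.2 TPM in WT (log2 difference -0.09, SE 0.10; limma adjusted p = 0.717). The other anchor, Sdhd, was highest in S156A 1 and WT 3, at 172 and 176 TPM, with 117 to 128 TPM in the other libraries. No complex II gene had groups that stood apart.

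In complex III, the cytochrome bc1 complex, 8 of 9 nuclear genes had a difference below 0 and the median was -0.09. Uqcrb, a small matrix-side subunit and the least abundant of the 9, had 157, 113 and 105 TPM in S156A and 150.3, 129 and 193 TPM in WT (log2 difference -0.33, SE 0.20; limma adjusted p = 0.506). The Rieske iron-sulfur protein Uqcrfs1 had 194, 167 and 155.9 TPM in S156A and 179.7, 189 and 229.6 TPM in WT (log2 difference -0.21, SE 0.14; limma adjusted p = 0.538). Cytochrome c1, encoded by Cyc1, had 244, 172 and 211 TPM in S156A and 222, 218 and 274 TPM in WT. Uqcrh, the hinge protein and the most abundant, averaged 369.97 ± 50.04 TPM in S156A and 383 ± 41.4 TPM in WT (SD, n = 3 each). For all 9 genes the highest levels of the 6 libraries were those of S156A 1 and WT 3.

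Complex IV, cytochrome c oxidase, had a median of -0.06 over its 16 nuclear genes, 12 of them lower. Cox5a, a matrix-side subunit on chromosome 9 (57428557 to 57439709 in the files' coordinates), had 334, 271 and 291 TPM in S156A and 357, 354 and 382 TPM in WT. The highest S156A library was below the lowest WT library, at a log2 difference of -0.29 (standard error 0.11, limma adjusted p = 0.332). Cox6a1, the widely expressed form of subunit VIa and the most abundant of the 16, also separated, with 800.2, 769.5 and 747 TPM in S156A and 881, 818 and 957 TPM in WT (log2 difference -0.19, SE 0.12; limma adjusted p = 0.506). The retrocopy Cox6c2, a processed pseudogene in GENCODE M21 and the least abundant, had 7.29, 9.27 and 5.82 TPM in S156A and 3.46, 2.02 and 9.44 TPM in WT (log2 difference 0.68, SE 0.45; limma adjusted p = 0.543).

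Complex V, the ATP synthase, had a median of -0.02 over its 18 nuclear rows, 10 lower and 8 higher. The catalytic beta subunit Atp5b, the most abundant nuclear subunit gene, had 1072, 869.9 and 874 TPM in S156A and 951, 934 and 1147 TPM in WT. The stator subunit Atp5pb, the least abundant of the complex, averaged 106 ± 8.26 TPM in S156A and 109 ± 5.52 TPM in WT (SD, n = 3 each). Overlapping rows carry the name Atp5o, the stalk protein that joins the stator to the catalytic head. The longer one runs through Donson and Cryzl1 on the same strand and had a log2 difference of -0.20 (standard error 0.16, limma adjusted p = 0.607), and the shorter one had -0.16 (SE 0.16). Atp5j2, a membrane subunit named after its values were seen, was at 258, 198 and 223 TPM in S156A and at 86.1, 227 and 274 TPM in WT, with WT 1 again alone at the low end.

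Atp5g1, Atp5g2 and Atp5g3 encode the same mature c-ring protein behind different import sequences. The smallest p of complex V was that of Atp5g2, with 352, 278 and 237 TPM in S156A and 319.9, 431 and 366 TPM in WT (log2 difference -0.37, SE 0.18; limma adjusted p = 0.405). Atp5g3 had 568, 468 and 499.6 TPM in S156A and 525, 547 and 631 TPM in WT (log2 difference -0.15, SE 0.13; limma adjusted p = 0.646) and supplied between 47.2% and 59.7% of the summed TPM of the 3 genes in each library. Atp5g1 varied most, with 284, 190.4 and 99.8 TPM in S156A and 268, 137 and 323 TPM in WT. It supplied 23.6%, 20.3% and 11.9% of the sum in S156A and 24.1%, 12.3% and 24.5% in WT, low in 1 library of each group.

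Some cytochrome c oxidase subunits have separate genes for heart and skeletal muscle, and these isoforms were high in the libraries with the most skeletal muscle marker RNA, 1 of each genotype. Cox6a2 (chromosome 7, 127804607 to 127805559 in the files' coordinates) had 116, 0.74 and 1.84 TPM in S156A and 0.39, 15.9 and 94.5 TPM in WT. Cox7a1 (chromosome 7, 29883569 to 29885503) had 46.0, 4.28 and 4.02 TPM in S156A and 3.18, 5.02 and 52.0 TPM in WT. Cox8b (chromosome 7, 140478858 to 140480359) had 95.9, 1.04 and 1.51 TPM in S156A and was listed at 0 in WT 1, with 8.58 and 98.8 TPM in WT 2 and WT 3. All 3 were high in S156A 1 and WT 3, intermediate or low in WT 2 and low in the rest. Their group differences were far inside the spread, at -0.65 (SE 1.946), -0.03 (SE 1.17) and -0.31 (SE 1.97) for Cox6a2, Cox7a1 and Cox8b, with limma adjusted p between 0.914 and 0.993. The sign of each depended on the libraries kept: without WT 3 the differences were 0.78, 1.10 and 1.36, and without S156A 1 and WT 3 together they were -1.13, 0.04 and -0.45.

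Skeletal muscle actin, Acta1, had 2611, 17.8 and 18.7 TPM in S156A and 8.22, 333 and 2472 TPM in WT, the same order of all 6 libraries as Cox6a2. All 10 skeletal muscle markers had S156A 1 and WT 3 as their highest libraries. Of the 3 cardiac markers tested 1 had the same highest libraries, Myh6, at 3.20, 0.60 and 0.53 TPM in S156A and 0.45, 0.86 and 0.91 TPM in WT. The 5 cardiac genes summed to 10.7, 12.6 and 6.49 TPM in S156A and 6.60, 6.38 and 8.91 TPM in WT, with Nppb at 0 in all S156A libraries and WT 2. Brown fat markers, which also accompany Cox7a1 and Cox8b, summed to 102, 5.06 and 10.3 TPM in S156A and 4.39, 24.5 and 102 TPM in WT, and Ucp1 was at 7.31, 0.13 and 1.01 TPM in S156A and 0.35, 9.07 and 7.49 TPM in WT. Pvalb, a calcium buffer of fast muscle and of the interneurons in which Cox6a2 is also known, had 7.25, 1.19 and 2.25 TPM in S156A and 0.54, 4.14 and 11.7 TPM in WT. Of 5 interneuron markers Pvalb was the 1 gene with S156A 1 and WT 3 highest. Lhx6 was highest in S156A 2 and S156A 3, Erbb4 in S156A 1 and S156A 2, and Gad1 and Sst in WT 1 and WT 2. The 5 summed to 312, 345 and 380.2 TPM in S156A and 468, 443 and 378 TPM in WT. The largest part was Sst, at 178, 174 and 233 TPM in S156A and 298, 291 and 247 TPM in WT, so the sum is not one of Pvalb cells alone. Which of these cells the isoform transcripts came from was not tested.

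As a share of the summed TPM with its widely expressed partner, Cox6a2 made up 12.6%, 0.10% and 0.25% in S156A and 0.04%, 1.91% and 8.98% in WT. Cox7a1 made up 12.7%, 1.95% and 1.31% in S156A and 0.97%, 1.66% and 14.4% in WT against Cox7a2, and Cox8b 12.1%, 0.22% and 0.28% in S156A and 0%, 1.28% and 12.5% in WT against Cox8a. The partners themselves varied little: Cox7a2 had 317, 215 and 303 TPM in S156A and 323, 298 and 309 TPM in WT (log2 difference -0.18, SE 0.16), and Cox8a had 693, 484 and 547 TPM in S156A and 634, 659.6 and 691 TPM in WT (log2 difference -0.22, SE 0.15). The high muscle share in S156A 1 and WT 3 came with a larger muscle isoform and not with a smaller partner.

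**Figure D4:**
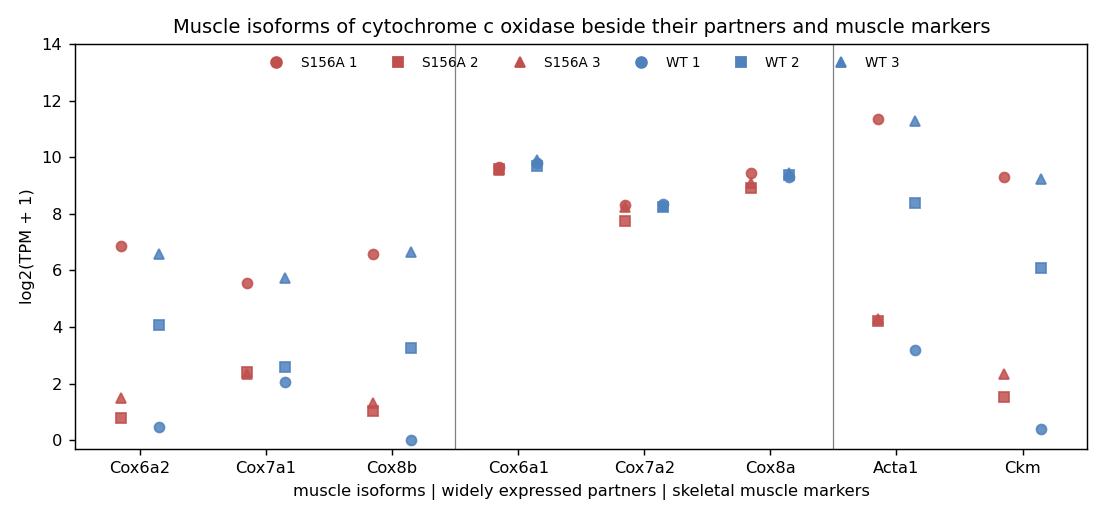
Level on the log2(TPM + 1) scale of the muscle isoforms Cox6a2, Cox7a1 and Cox8b, their widely expressed partners Cox6a1, Cox7a2 and Cox8a, and the muscle markers Acta1 and Ckm, 1 point per library, S156A in red left of WT in blue. Circles of S156A 1 and triangles of WT 3 stand at the top for the isoforms and the markers, Cox6a2 at 116 and 94.5 TPM. Among the partners the same holds for Cox8a (693 and 691 TPM) and not for Cox6a1 and Cox7a2.

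The promoters of a muscle isoform and of 2 widely expressed subunits are shown. Cox8b and Cox8a are an isoform pair, both highest in S156A 1 and WT 3. Over the libraries Cox8b ranged from 0 to 98.8 TPM and Cox8a from 484 to 693 TPM. Cox6a1 is a widely expressed subunit gene whose groups did not overlap. Sequences are from RefSeq on GRCm38.p6, 250 bases before to 50 bases after the annotated start, read in the direction of the gene. Capitals mark each match to 4 motifs searched on both strands, none of which contains another: CAGCTG, an E-box of the kind bound by myogenic factors, TATAAA, the TATA box, CCGGAAG, the core of ETS factor sites such as those of GABP, which reads CTTCCGG on the other strand, and GCGCATGC, the core of the NRF1 site, where overlapping matches count as 1 place. The Cox8b window is chr7:140900397-140900696 on the minus strand, Cox8a is chr19:7217567-7217866 on the minus strand and Cox6a1 is chr5:115348909-115349208 on the minus strand.
Cox8b: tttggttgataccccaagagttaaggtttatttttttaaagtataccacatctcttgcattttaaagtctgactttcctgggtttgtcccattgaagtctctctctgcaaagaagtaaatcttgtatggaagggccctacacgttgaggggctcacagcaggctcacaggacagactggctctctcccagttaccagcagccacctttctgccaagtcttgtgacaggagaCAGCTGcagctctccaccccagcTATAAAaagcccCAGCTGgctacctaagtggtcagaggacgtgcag
Cox8a: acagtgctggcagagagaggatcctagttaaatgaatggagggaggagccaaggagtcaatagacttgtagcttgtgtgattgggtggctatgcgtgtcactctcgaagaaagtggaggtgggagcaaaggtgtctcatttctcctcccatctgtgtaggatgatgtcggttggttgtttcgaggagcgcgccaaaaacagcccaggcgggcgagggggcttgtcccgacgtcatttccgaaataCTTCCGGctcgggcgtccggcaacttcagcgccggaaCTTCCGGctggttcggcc
Cox6a1: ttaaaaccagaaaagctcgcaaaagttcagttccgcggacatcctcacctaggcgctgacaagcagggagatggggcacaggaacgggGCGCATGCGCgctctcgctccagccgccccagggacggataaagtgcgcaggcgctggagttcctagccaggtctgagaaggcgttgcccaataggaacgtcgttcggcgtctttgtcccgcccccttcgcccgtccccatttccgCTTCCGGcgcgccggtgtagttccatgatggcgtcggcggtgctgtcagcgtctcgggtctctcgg

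Cox8b held CAGCTG at 2 places and TATAAA at 1, Cox8a held CCGGAAG at 2 places, and Cox6a1 held CCGGAAG and GCGCATGC at 1 place each. The windows of Cox7a1 and Cox7a2 held none of the 4 motifs. Promoters were found for 68 of 87 nuclear member names. Over 71 promoters of the nuclear subunit genes without the muscle isoforms, CCGGAAG was present in 23.9%, against 8.86% of all 32851 promoters in the table. GCGCATGC was present in 14.1% of the members' promoters and 2.71% of all promoters, CAGCTG in 7.04% and 16.3%, and TATAAA in 9.86% and 13.6%. These are letter matches in a fixed window and do not show binding.

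Other subunit isoforms known from restricted tissues or conditions were detected at low levels. Ndufa4l2, a hypoxia-induced relative of the complex IV subunit Ndufa4, had 58.5, 18.6 and 22.7 TPM in S156A and 11.9, 13.1 and 50.6 TPM in WT (log2 difference 0.52, SE 0.62; limma adjusted p = 0.754). Ndufa4 itself averaged 395 ± 35.6 TPM in S156A and 435 ± 48.7 TPM in WT (SD, n = 3 each). Cox4i2, the lung and hypoxia form, had 9.83, 5.97 and 6.05 TPM in S156A and 5.02, 6.02 and 12.2 TPM in WT, against means of 790.1 ± 102 TPM in S156A and 792 ± 106 TPM in WT for its common partner Cox4i1 (SD, n = 3 each). Cox6b2, the testis form, had 32.6, 15.9 and 20.9 TPM in S156A and 10.2, 21.9 and 26.4 TPM in WT, against 411 ± 62.1 TPM in S156A and 466 ± 19.2 TPM in WT for Cox6b1 (SD, n = 3 each). Each of these 3 isoforms was highest in S156A 1 and WT 3 as well.

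Much of the spread among nuclear genes ran within the genotypes. S156A 1 and WT 3 were the highest libraries for 42 of the 85 nuclear genes, or 49.4%, against 13.8% of all tested genes. By complex this held for 9 of 38 genes of complex I, 2 of 4 of complex II, 9 of 9 of complex III, 9 of 16 of complex IV and 13 of 18 of complex V, and for 1 of the 13 mitochondrial genes. WT 3 was the highest library for 51 nuclear genes and S156A 1 for 25, while S156A 2 was the lowest for 50. The same libraries held the most skeletal muscle marker transcripts, and the part of these in the nuclear values was not tested.

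**Figure D5:**
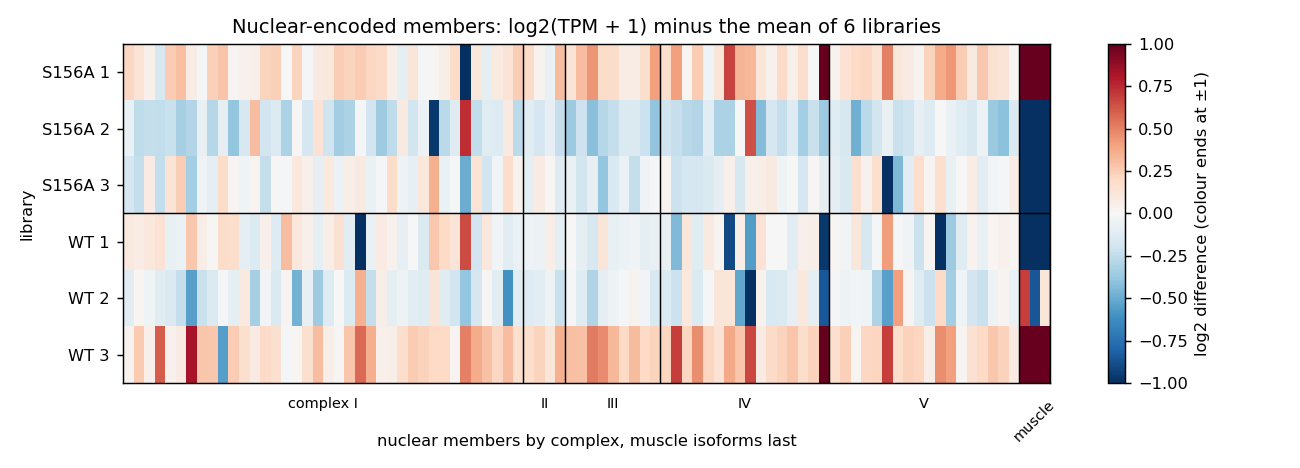
Level of each nuclear subunit gene, as log2(TPM + 1) minus its mean over the 6 libraries, by library (rows, S156A above WT) and complex (columns), with the 3 muscle isoforms at the right; colours end at a difference of 1 in either direction. The rows of S156A 1 and WT 3 are mostly above the mean and that of S156A 2 mostly below, within both genotypes.

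Without S156A 1 and WT 3, which leaves 2 libraries in each group, 0 of 101 members and 0 of all 18893 genes were called (smallest limma adjusted p = 0.0639), so the lack of a call says nothing of the members here. Of the members 11 had an unadjusted p under 0.05, or 10.9%, against 16.6% of all genes. Lower in S156A among the 11 were mt-Nd5 (log2 difference -0.48), Cox5a (-0.34), Atp5g2 (-0.53), the accessory complex I gene Ndufa10 (-0.29), Cox8a (-0.33) and Uqcrb (-0.35). Higher were Ndufa4l2 (0.68), Cox6c2 (1.19), Ndufb1 (0.41), the complex I core gene Ndufv2 (0.48) and the ATP synthase membrane subunit gene Atp5k (0.28). The median over the 13 mitochondrial genes was then -0.30 with all 13 lower, and over the 85 nuclear genes it was -0.04 with 54 lower. WT 2, kept here, still held 902 TPM of skeletal muscle markers, against 64.9, 59.1 and 17.04 TPM in S156A 2, S156A 3 and WT 1.

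Lists of genes that build or feed the complexes had medians of either sign, where all tested genes had a median of 0.09. With all 6 libraries no list had a median above that of all genes. Of all genes 38.3% had a difference below 0. By limma 5.5% of them were lower and 8.41% higher at an unadjusted p under 0.05. Of 54 assembly factors 0 were called, 2 were lower and 7 higher at an unadjusted p under 0.05, and the median log2 difference was 0.09. This median was 0.004 with scaling by trimmed means, 0.020 under quantile normalization, 0.028 without WT 2 and 0.133 without S156A 1. Timmdc1, a complex I assembly factor, had 31.6, 31.8 and 29.0 TPM in S156A and 22.0, 20.4 and 23.7 TPM in WT (log2 difference 0.47, SE 0.12; limma adjusted p = 0.194). Atpaf2, which assembles the catalytic head of the ATP synthase, had a log2 difference of 0.41 (standard error 0.13, limma adjusted p = 0.258). For both the groups did not overlap.

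Among 18 genes of mitochondrial DNA expression and its regulators 0 were called and 2 were higher at an unadjusted p under 0.05, with a median of 0.08. The mitochondrial DNA helicase Twnk had 19.0, 24.4 and 20.3 TPM in S156A and 13.5, 16.9 and 12.5 TPM in WT (log2 difference 0.55, SE 0.17; limma adjusted p = 0.255). Gabpb1, a subunit of the GABP transcription factor, had a log2 difference of 0.50 (standard error 0.21, limma adjusted p = 0.348). The 78 mitochondrial ribosome genes had a median of 0.07, against 0.09 for all genes, with 55 higher. Of them 29.5% were lower, against 38.3% of all genes. The ribosome median became -0.01 under scaling by a trimmed mean. Of the ribosome genes 0 were called and 2 were higher at an unadjusted p under 0.05, Mrps14 (log2 difference 0.50) and Mrps11 (0.29), both of the small subunit. In the list of cytochrome c, coenzyme Q synthesis and the acyl carrier subunit, 0 of 13 were called, 1 was higher at an unadjusted p under 0.05, and the median was -0.03, or 0.18 without WT 3. Coq8b, a kinase-like protein of coenzyme Q synthesis, was at 0.40 and the prenyltransferase Coq2 at -0.23.

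Both lists of pathways that supply electrons had a median below 0, without calls and with summed TPM that overlapped between the groups. Of 16 genes of pyruvate dehydrogenase and the citric acid cycle 15 had a fitted difference below 0, against 38.3% of all genes, 0 were called and 1 had an unadjusted p under 0.05, and the median was -0.14. They summed to 2189, 1732 and 1741 TPM in S156A and 1951, 2022 and 2298 TPM in WT. Pdha1, the catalytic alpha subunit of pyruvate dehydrogenase, had 112, 103 and 95.1 TPM in S156A and 126, 133 and 154 TPM in WT (log2 difference -0.41, SE 0.12; limma adjusted p = 0.218), and citrate synthase, Cs, had a log2 difference of -0.23 (standard error 0.12, limma adjusted p = 0.442). Of 17 glycolysis rows 15 had a difference below 0, 0 were called and 5 were lower at an unadjusted p under 0.05, and the median was -0.24. Those 5 are 29.4%, against 5.5% of all genes. In 8 rows every S156A library lay below every WT library, 47.1% against 7.05% of all genes. Their sum was 5164, 4122 and 4341 TPM in S156A and 4790.2, 4846 and 5646 TPM in WT. Gapdh, named after its values were seen, added little to it. That row held 25.8, 18.0 and 17.5 TPM in S156A and 38.3, 18.4 and 48.0 TPM in WT. Why it was so low was not tested. The larger Aldoa row, named after its values were seen, held 1166 TPM in S156A 1 and 1127 TPM in WT 3, with 497 to 667 TPM elsewhere. Its part in the overlap of the sums was not tested. Eno2, the neuronal enolase, had 41.3, 56.7 and 56.9 TPM in S156A and 113, 114 and 84.9 TPM in WT (log2 difference -0.995, SE 0.17; limma adjusted p = 0.0872). Pfkp, a phosphofructokinase, had 75.5, 95.8 and 64.4 TPM in S156A and 156.03, 131 and 118 TPM in WT (log2 difference -0.78, SE 0.17; limma adjusted p = 0.136). The part of the neuron, astrocyte and microglia markers given above in these differences was not tested.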

How the data were processed

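Total RNA was taken with TRIzol from whole brains, 3 per library, and sequenced with a directional MGIEasy kit, per the labels' protocols. The deposited tables hold TPM, FPKM and coverage per gene from StringTie, per the file headers. The submitters' processing notes list StringTie 2.1.5, HISAT2 2.2.1 and Trim Galore 0.6.6, and the human build hg38, although the rows are mouse genes. No source used here states the annotation release, filters or strand setting. Of 52083 gene identifiers shared with GENCODE M21, 4.15% started within 1000 bases of their GRCm38 position, so GRCm39 is inferred for the nuclear coordinates; the 13 mitochondrial genes start and end at the same bases in both.

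Annotated and assembled rows each count the same reads, so the deposited TPM column is treated as a score with no fixed total. Only annotated rows were used, with the rows of 7 repeated identifiers added up. Read counts are absent, so depth is an estimate (coverage over FPKM) and no counting interval can be given. The authors' FPKM values served as an alternative.

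Groups came from the sample titles. Expression was tested on log2(TPM + 1) with limma 3.58.1 in R 4.3.3 (eBayes with trend, two-sided, no covariate) over the 18893 genes whose mean TPM reached 1, adjusted by the Benjamini-Hochberg method and called under 0.05. This scale understates changes of low genes. The script was tested on simulated data. Named were all mitochondrial members, muscle isoforms and partners, other isoform pairs, the most and least abundant member and the 3 smallest p of each complex, and the 2 smallest p of each pathway list. Members, lists, markers and alternatives were chosen with earlier results of these data known. The motif shares come from RefSeq promoters. Of the nuclear members 9 overlap an expressed gene on the same strand and 27 on the opposite strand, and 6 expressed pseudogenes carry a member's name, so reads could be split between them.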

Additional observations from a re-analysis of the deposited data

How the results depend on the processing

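The count of 0 called members, and of 0 called genes in each pathway list, was the same under all alternatives run: FPKM, a pseudocount of 0.1 or 5, a mean TPM of at least 5 or no filter, scaling by trimmed means, quantile normalization, TPM rescaled without mitochondrial genes, eBayes without trend or robust, the replicate block, each library left out, and WT 3 and S156A 1 left out together. In 6 settings no gene of any kind was called, so the count says nothing of the members there: no filter, the replicate block, without S156A 2, S156A 3 or WT 2, and without WT 3 and S156A 1 together. Without S156A 1 a single gene was called, and without WT 1 there were 2. The 4 members at an unadjusted p under 0.05 became 2 with FPKM, 7 with trimmed means, 1 without trend, 1 with the replicate number as a block, 0 to 7 with 1 library left out and 11 without WT 3 and S156A 1 together. Leaving out the 3 retrocopies and the longer Atp5o row, chosen after seeing the data, left the nuclear median at -0.05. Libraries of the same replicate number were not the most alike in their deviations from the group means. These correlated at -0.55, 0.20 and -0.41 for numbers 1 to 3, and S156A 1 correlated best with WT 3, at 0.65. Since S156A 1 and WT 3 also share high muscle marker RNA, the correlations cannot show whether the numbers mark a pairing. Under the block 0 of all genes were called, against 30 without it.

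The mitochondrial median kept its sign in these alternatives except TPM rescaled without mitochondrial genes, which gives no value for it. This median was -0.297 without WT 3 and S156A 1 together and -0.242 to -0.154 with 1 library left out. The difference in the mitochondrial share of TPM lay between -0.711 and -0.417 percentage points with 1 library left out. That difference was -0.355 under quantile normalization, -0.812 with trimmed means and -0.798 without WT 3 and S156A 1 together. The nuclear median lay between -0.135 and 0.038 with 1 library left out, and the medians of complex I (-0.115 to 0.031), II (-0.122 to 0.078), IV (-0.170 to 0.064) and V (-0.082 to 0.101) also changed sign, but not that of complex III (-0.264 to -0.007). Over the 98 members other than the muscle isoforms, the sign changed in 127 pairs of gene and setting, in 49 genes. With 1 library left out, Cox6a2 ranged from -2.559 to 0.778, Cox7a1 from -1.095 to 1.101, Cox8b from -2.122 to 1.355, Ndufa11 from -0.134 to 0.027, Sdha from -0.096 to 0.090, Sdhb from -0.103 to 0.066, Sdhd from -0.191 to 0.147, Uqcrh from -0.154 to 0.040, Cox4i1 from -0.091 to 0.103, Cox4i2 from -0.247 to 0.318, Cox6b2 from -0.112 to 0.529, mt-Atp6 from -0.133 to 0.049, Atp5g1 from -0.742 to 0.027 and Atp5pb from -0.079 to 0.030. Other changes of sign were Cox7a1 (0.039), Sdha (-0.006), Sdhb (0.039), Cox4i1 (0.016) and Cox4i2 (0.109) without WT 3 and S156A 1 together, Cox8b at a pseudocount of 0.1 (0.346), Sdha with FPKM (-0.020), trimmed means (-0.083) and rescaled TPM (-0.010), and mt-Co1 (0.090) and Cox4i1 (0.013) under quantile normalization. The cause was not tested beyond the libraries left out.

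With 3 pools per group, a p that misses the threshold does not show that a gene is unchanged. Depth is an estimate here, and no interval is given for genes near the level minimum.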
